A study of Mus musculus with 288 samples.

Results

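Heart and skeletal muscle of the mouse were compared for the 24 h wave of every measured gene, with 24 arrays of each tissue taken at the same circadian times. The 2 tissues were chosen by their labels alone, 48 of the 288 arrays of a series that covers 12 organs. All mice were C57/BL6 animals of unstated age, with no transgene or treatment named. They lived for 1 week in 12 h of light and 12 h of darkness and were then kept in constant darkness while organs were taken every 2 h from circadian time 18 (CT18) to CT64, so that CT0 and CT12 stand for the former lights-on and lights-off. Each array holds a pool of RNA from 3 mice. There are therefore no replicate arrays at a time, and the error of a fit is the scatter of 24 arrays around a wave over 2 days. The anatomical muscle was not named in the labels, and neither tissue was separated into cell types.

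The circadian clock is a feedback loop of transcription factors. ARNTL (BMAL1) and CLOCK bind E-box sequences and switch on Per, Cry, Nr1d1 and Nr1d2, whose proteins then repress the activators or the Arntl gene itself. Outputs such as Dbp, Tef and Hlf carry the rhythm to other promoters. Heart and skeletal muscle are both striated muscle and share much of the contractile apparatus, but the heart works without pause and burns mainly fatty acids, while limb and trunk muscle works in bouts that follow activity and feeding and consists of fast and slow fibres.

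For each gene a 24 h cosine wave was fitted to the log2 intensity of each tissue, and the wave's size is given as the peak-to-trough fold, its timing as the fitted peak in CT. A gene was called rhythmic where limma's test of the wave, adjusted by Benjamini-Hochberg over 19938 genes, fell under 0.05, and different where the same kind of test of the difference between the waves did. A shared gene was rhythmic in both tissues with no difference called, which does not show that its waves were equal. A tissue-specific gene was rhythmic in 1 tissue only, had the larger wave there and passed the test of difference.

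The labelled tissues carried their own markers. The 10 heart muscle cell markers averaged 11.5 log2 intensity in heart and 7.60 in skeletal muscle, and the 12 markers of fast skeletal fibres averaged 7.16 in heart and 13.5 in skeletal muscle. 5 of the 48 arrays stood apart from their tissue. The heart array of CT26 had hepatocyte markers at 10.7 log2 intensity against a median of 6.50. Skeletal muscle arrays at CT22 and CT24 were high in hepatocyte and lymphocyte markers, and those at CT42 and CT46 in lymphocyte markers, so all 4 lie in the span from CT18 to CT24 of their day.

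**Figure D1:**
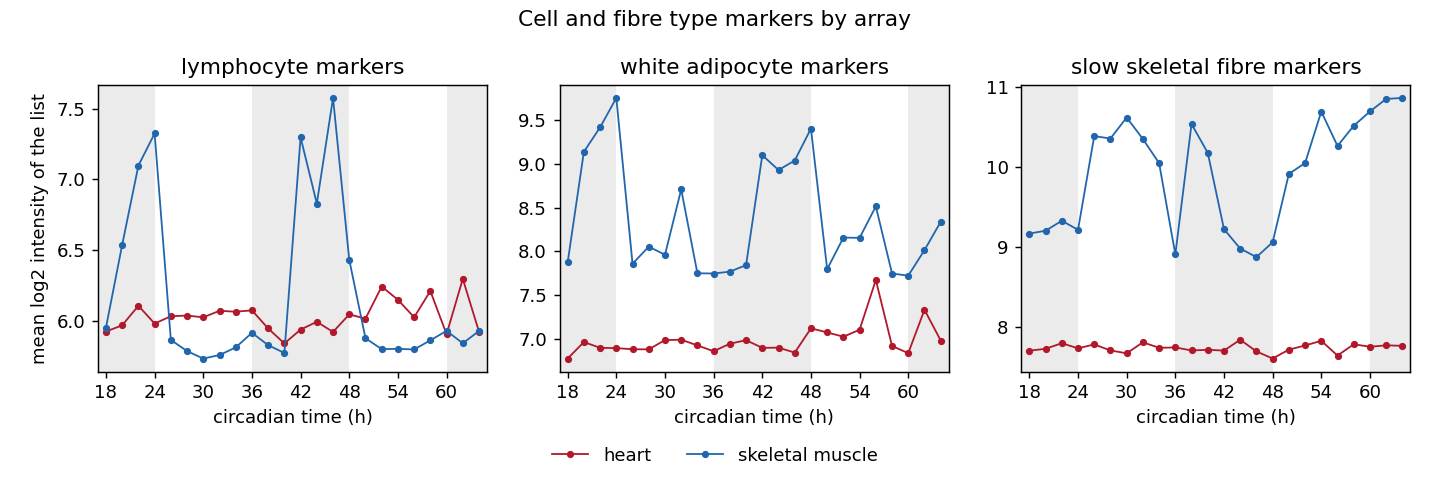
Mean log2 intensity of lymphocyte, white adipocyte and slow skeletal fibre marker lists on each array by circadian time, with heart in red, skeletal muscle in blue and the subjective night shaded. In skeletal muscle the lymphocyte mean ranged from 5.73 to 7.58, the white adipocyte mean from 7.72 to 9.76 and the slow fibre mean from 8.88 to 10.9, while the heart means moved by less than 1 log2 unit.

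These marker lists themselves followed time of day in skeletal muscle. The lymphocyte mean was highest at CT46 and its fitted peak lay at CT21.2, the white adipocyte mean was highest at CT24 with a fitted peak at CT22.3, and the slow fibre mean was highest at CT64 with a fitted peak at CT9.26. In whole tissue, more cells of a type and more RNA per cell cannot be told apart. Each result below was therefore also fitted without the 5 arrays and with each of the lymphocyte, hepatocyte, white adipocyte and slow fibre means as a covariate. A gene that kept its class in all 5 of these fits is called a gene that kept its class.

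In heart 1724 genes (8.65% of those tested) were rhythmic, in skeletal muscle 1028 (5.16%), and 357 (1.79%) in both. The overlap was 20.7% of the heart genes and 34.7% of the skeletal muscle genes. The waves of 996 genes (5.0%) differed between the tissues. By class, 237 genes (1.19%) were shared, 120 (0.602%) were rhythmic in both and different, 352 (1.77%) were heart-specific and 354 (1.78%) were skeletal muscle-specific. A further 1015 genes were called in heart and 317 in skeletal muscle with no such class. Most genes called in heart alone were therefore not shown to differ. Of those called in skeletal muscle alone, 354 were specific and 317 were not. The classes kept 89 shared genes, 37 of both and different, 83 heart-specific and 36 skeletal muscle-specific genes in all 5 fits. A fit on ranks within each tissue, made with the ordinary F test, is not among the 5. It gives both tissues the same spread, so that a difference in fold alone may not show on it. It called 386 genes different, 358 of them among the 996, so that a class kept in the 5 fits may still be lost on ranks, as is said of the genes below. The smallest adjusted p just outside the threshold of difference was 0.0506.

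Heart-specific waves were small, with a median fold of 1.25 and 27 of 352 genes over 1.5-fold. Skeletal muscle-specific waves had a median fold of 1.45, with 149 of 354 over 1.5-fold and 55 over 2-fold. In the other tissue, 64 of the 352 heart-specific and 153 of the 354 skeletal muscle-specific genes lay below the median gene. For such genes, low expression and absence of a wave cannot be told apart. Of the skeletal muscle-specific genes, 254 peaked between CT18 and CT24, where the lymphocyte and adipocyte means also peaked. Among the 36 that kept their class 15 did. Those means were covariates in the fits that define a kept class, so a wave of any source at those hours was lost more easily. The fall in the count therefore does not show where such waves came from. Of the heart-specific genes 122 peaked between CT12 and CT18 and 150 between CT18 and CT24. Among the 83 that kept their class these counts were 44 and 20.

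**Figure D2:**
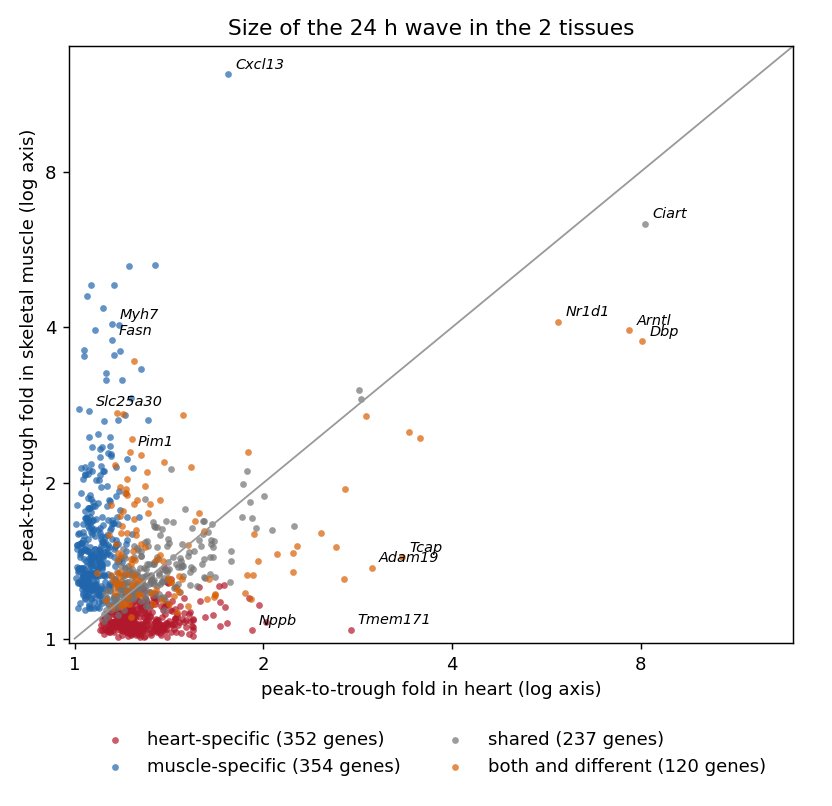
Peak-to-trough fold in heart (horizontal, log axis) against skeletal muscle (vertical, log axis) for the genes of the 4 classes, 1 point per gene, with the line of equal folds. Clock genes such as Arntl and Dbp lie far to the right and below the line, and the highest skeletal muscle-specific points include Cxcl13, Myh7 and Fasn.

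The core clock ran in both tissues. Each of the 12 core clock genes on the arrays was called in heart and in skeletal muscle, with a median fold of 2.56 in heart and 2.01 in skeletal muscle. The heart wave was the larger in 11 of 12 genes, against 49.2% of all genes, and the skeletal muscle peak was the earlier in 10 of 12, on average by 1.11 h (SD 1.15 h over 12 genes, which are not replicates). The difference passed for 7 of the 12, against 5.0% of all genes, and for 0 of the 12 on ranks. Arntl, the activator, was lowest at 5.80, had a median of 7.33 and was highest at 8.76 log2 intensity in heart, and went from 7.10 through 8.46 to 9.26 in skeletal muscle. Its highest arrays were those of CT48 in heart and CT50 in skeletal muscle, and the ranges overlapped. Its fold was 7.67 (95% interval 6.51 to 9.03) in heart and 3.95 (3.30 to 4.72) in skeletal muscle, with an adjusted p of the difference of 0.000585 and peaks at CT23.2 and CT22.7.

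**Figure D3:**
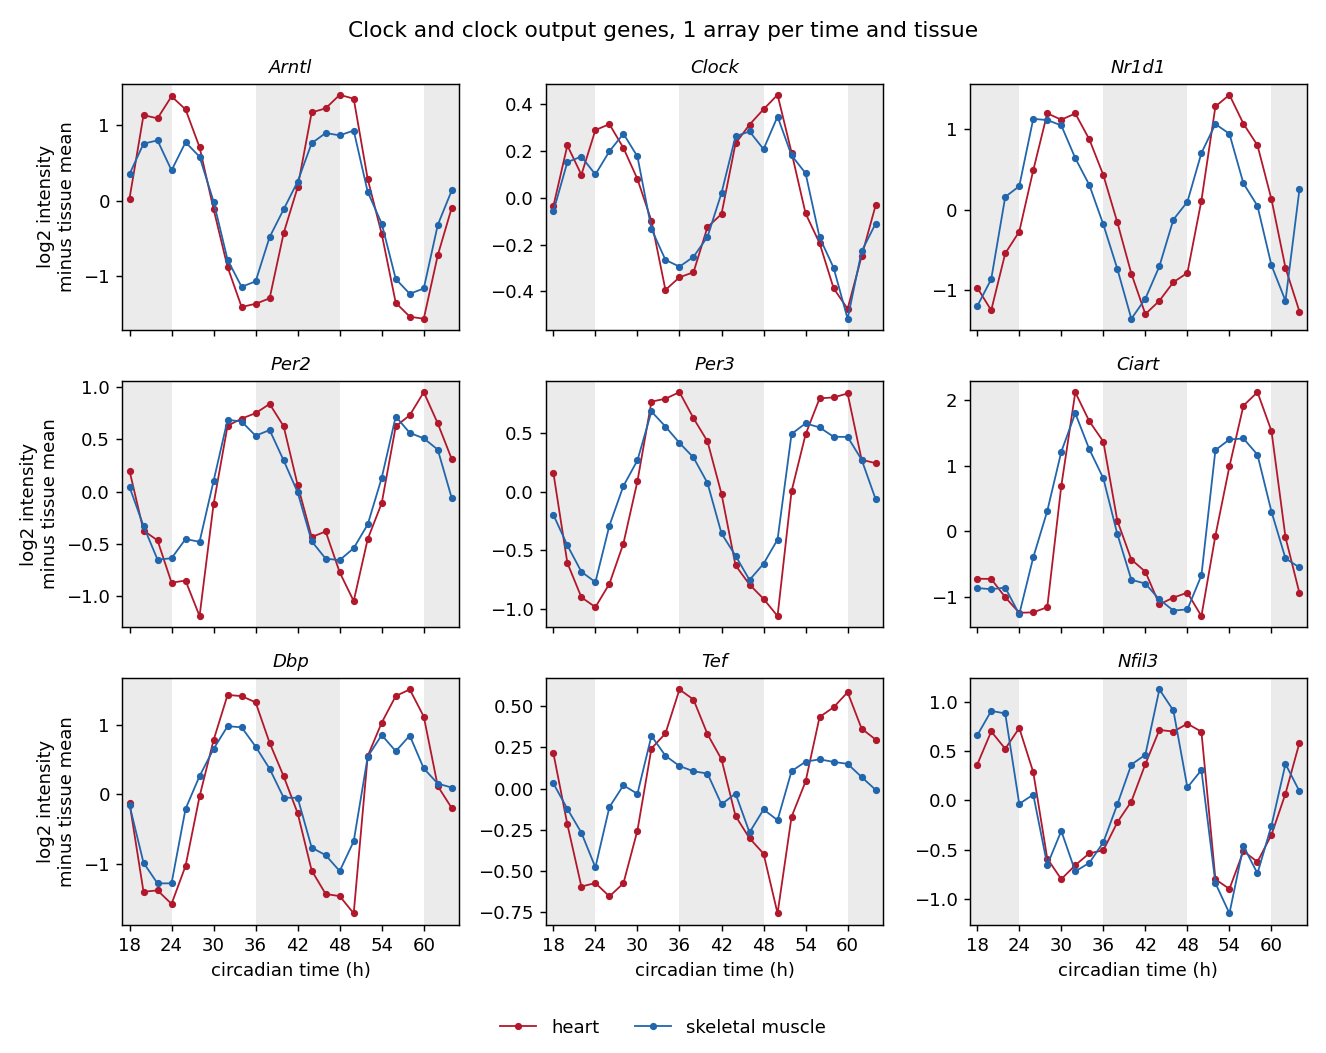
Log2 intensity minus the tissue mean for 9 clock and clock output genes by circadian time, heart in red and skeletal muscle in blue, 1 array per point, subjective night shaded. The heart swings of Arntl, Dbp and Tef are the wider, and Nr1d1 and Per3 in skeletal muscle run ahead of heart, with fitted peaks at CT4.54 against CT6.77 and CT9.68 against CT11.2.

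The fitted peaks of several repressor genes came earlier in skeletal muscle. Nr1d1, the receptor that represses Arntl, spanned 8.80 to 11.52 log2 intensity in heart (median 10.07) and 9.29 to 11.78 in skeletal muscle (median 10.78). It was highest at CT54 in heart and at CT26 in skeletal muscle, and its skeletal muscle peak came 2.23 h earlier (95% interval 1.46 to 3.01 h, adjusted p of the difference 0.000173). Per3 peaked 1.56 h earlier (0.85 to 2.26 h) with folds of 3.55 in heart and 2.44 in skeletal muscle, and Per2 1.25 h earlier (0.53 to 1.98 h) with folds of 3.42 and 2.51. On ranks the adjusted p of the difference was 0.0933 for Nr1d1, 0.126 for Per3 and 0.142 for Per2. Clock, the partner of Arntl, showed no called difference, with folds of 1.65 and 1.52. Per1, the most stimulus-responsive of the Per genes, had near-equal folds of 2.86 and 2.91 and an interval of -1.62 to 1.02 h for the time of its skeletal muscle peak after that of heart. Cry1 had a fold of 1.63 in heart and 1.19 in skeletal muscle (adjusted p of the difference 0.0012), and with the lymphocyte covariate it was not called in skeletal muscle. Cry2 fell just outside the threshold, at an adjusted p of 0.0508, with a skeletal muscle peak 2.61 h earlier (1.18 to 4.04 h). Its difference passed without the arrays that stood apart, with circadian time as replicate block and with all 288 arrays in the fit, and also without any 1 of the heart arrays of CT32, CT38, CT46, CT52, CT54, CT56 or CT62 or the skeletal muscle arrays of CT20, CT24, CT50, CT58 or CT64.

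Of the 12 clock output genes, 10 were rhythmic in both tissues, against 1.79% of all genes, and 7 passed the test of difference, against 5.0%. On ranks 1 of the 12 passed it. The PAR bZIP factors, which act on D-box sequences, had the larger wave in heart in all 3 members. Dbp went from 7.50 through a median of 9.26 to 10.73 log2 intensity in heart and from 8.30 through 9.71 to 10.56 in skeletal muscle, folds of 8.03 and 3.75 (adjusted p of the difference 0.0084). Tef had folds of 2.23 and 1.35 and peaked 2.17 h earlier in skeletal muscle (0.88 to 3.45 h, adjusted p 2.66e-07). Hlf had folds of 1.96 and 1.41 (adjusted p 0.00185). On ranks, where a difference in fold alone may not show, the adjusted p was 0.729 for Dbp, 0.0572 for Tef and 0.482 for Hlf. Nfil3, which competes for the same sites, gave no called difference, with folds of 2.84 and 3.03 and peaks at CT20.6 and CT19.7. Coq10b went the other way, with folds of 1.89 in heart and 2.30 in skeletal muscle (adjusted p 0.0261), a difference that no longer passed without the heart array of CT28 or the skeletal muscle array of CT52 or CT54, nor with any of the lymphocyte, hepatocyte, white adipocyte and slow fibre covariates.

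Of the clock and clock output genes, Ciart, Tef, Cry1 and Coq10b carry the E-box CACGTG in the 150 bases before the start. In Cry1 it begins 60 bases and in Coq10b 78 bases before the start. Arntl, Nr1d1, Per3, Dbp and Hlf carry none there. The promoters of Ciart and Tef are shown. Both are RefSeq sequences of GRCm38.p6, 150 bases up to the base before the start, 5′ to 3′ on the gene's strand, with the E-box in capitals. Ciart, a clock repressor with folds of 8.13 in heart and 6.34 in skeletal muscle (adjusted p of the difference 0.119, and past the threshold with circadian time as replicate block, with all 288 arrays in the fit or with 12 h and 8 h waves added, at the lowest 0.000518), lies on the minus strand at chr3:95882229-95882378 and has 3 E-boxes, beginning 116, 58 and 44 bases before the start. Tef lies on the plus strand at chr15:81802523-81802672 and has 1, beginning 127 bases before.
Ciart: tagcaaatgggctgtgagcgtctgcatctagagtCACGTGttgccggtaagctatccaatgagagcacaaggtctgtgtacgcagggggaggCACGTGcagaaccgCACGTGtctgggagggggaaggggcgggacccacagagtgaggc
Tef: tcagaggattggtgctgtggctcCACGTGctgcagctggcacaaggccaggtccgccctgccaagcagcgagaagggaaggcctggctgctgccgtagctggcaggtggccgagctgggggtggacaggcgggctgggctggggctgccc
The 300-base windows (250 before and 50 after the start, 1 per gene) of 6 of 21 clock and clock output genes held CACGTG, against 8.4% of 15563 genes with a window. Among shared genes the share was 13.5%, among genes both and different 13.5%, among heart-specific genes 8.89% and among skeletal muscle-specific genes 8.9%. The site CAGCTG, which myogenic factors can bind, was in 23.5% of skeletal muscle-specific, 14.4% of heart-specific and 15.9% of all windows. It was also in 23.8% of the clock and clock output windows, 19.8% of those both and different and 14.6% of shared ones. Among genes that kept their class it was in 8 of 30 skeletal muscle-specific and 12 of 62 heart-specific windows. Both motifs read the same on either strand and do not overlap in sequence, and a match describes letters only.

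Beyond the clock, shared genes with large waves included genes of metabolism and signalling. Of all 237 shared genes, 157 (66.2%) had peaks within 2 h of each other. Ypel2 had folds of 2 in heart and 1.88 in skeletal muscle and peaks at CT20.8 and CT20.8. Its levels ran from 7.71 through 8.31 to 8.83 log2 intensity in heart and from 7.29 through 7.87 to 8.34 in skeletal muscle, highest at CT22 and CT44. Ppp1r3c, which targets a phosphatase to glycogen, had folds of 1.88 and 2.11 and peaks at CT19.8 and CT19.4. Pdk4, the kinase that closes the pyruvate dehydrogenase gate, had folds of 1.60 and 1.59 and peaked at CT3.81 and CT4.77. Mid1ip1, a regulator of fatty acid synthesis, peaked at CT13.9 and CT13.1 with folds of 1.86 and 1.99. Irs1, the insulin receptor substrate, had folds of 1.66 and 1.67. The basement membrane chains Col4a1 and Col4a2 were shared too, Col4a1 with folds of 1.40 and 1.30 and Col4a2 with 1.41 and 1.30, and peaks between CT1.33 and CT2.74. Pdk4 and Irs1 did not keep their class in all 5 fits. Ypel2, Ppp1r3c, Mid1ip1, Col4a1 and Col4a2 did.

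Of the 120 genes that were rhythmic in both and different, 98 had a peak-time interval that left out 0 and 74 a fold interval that did, 52 of them in common. The fold was the larger in heart in 32 of the 74 and in skeletal muscle in 42. Tcap, the titin cap of the Z-disc, went from 9.28 through 10.34 to 11.08 log2 intensity in heart and from 10.89 through 11.34 to 11.61 in skeletal muscle, and the adjusted p of the difference was 2.72e-08. The heart range was the wider one and the ranges overlapped. Slc41a3, a magnesium transporter of mitochondria, had folds of 2.69 in heart and 1.30 in skeletal muscle. Pim1, a serine/threonine kinase, was the reverse, with 1.23 in heart and 2.30 in skeletal muscle (adjusted p 2.07e-07). Pnpla3, a lipid-droplet enzyme chosen after its values were seen, had folds of 1.19 and 2.71 at near-equal peaks of CT19.6 and CT20.5 (adjusted p 3.8e-10). Glul, glutamine synthetase, had folds of 1.24 and 1.70 and peaks at CT15.2 and CT15.5. These 5 genes kept their class. The difference of each was lost on ranks, where a difference in fold alone may not show.

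**Figure D4:**
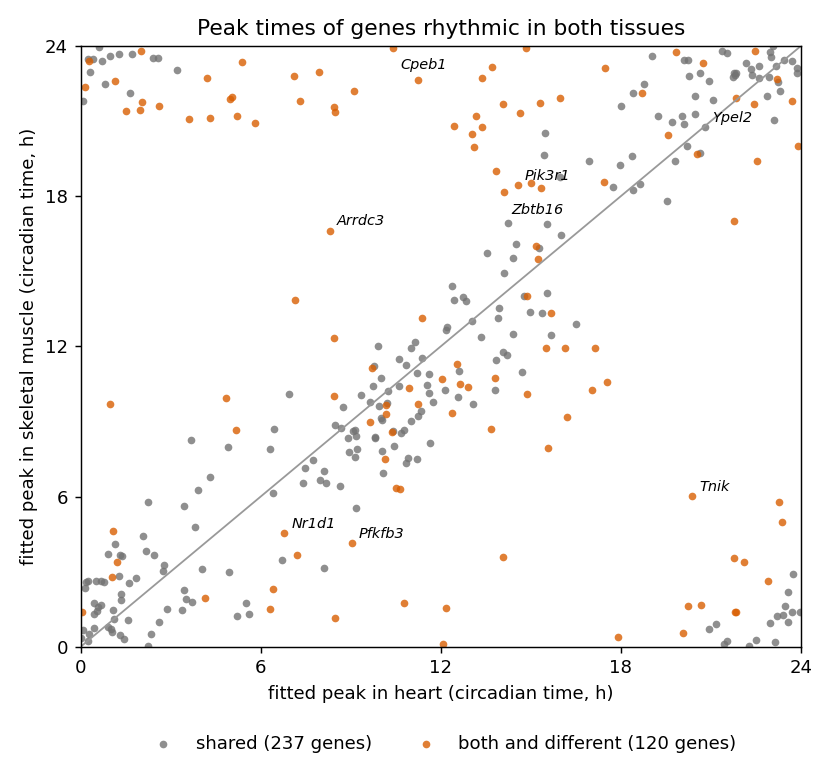
Fitted peak in heart (horizontal, circadian time in h) against skeletal muscle (vertical) for the 357 genes rhythmic in both tissues, grey where shared and orange where different, with the line of equal peaks. Points near opposite corners are close in time, since CT0 and CT24 are the same hour, and Cpeb1, Tnik and Arrdc3 lie far from the line.

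The 98 shifted genes did not move 1 way. Skeletal muscle peaked earlier in 56 and later in 42, and over all 357 genes rhythmic in both, earlier in 181 and later in 176. The shifts fitted on day 1 and day 2 apart lay within 4 h of each other in 89 of the 98. They did so too in 332 of the 357 genes rhythmic in both and in 222 of the 237 shared genes. The calls came from the same 2 days, so this is no independent replication. In 39 of the 98 shifted genes the peaks lay over 6 h apart, and 6 of these kept their class. Arrdc3, an arrestin-like regulator of receptors and glucose uptake, went from 9.09 through 9.42 to 9.72 log2 intensity in heart, highest at CT32, and from 9.14 through 9.98 to 10.66 in skeletal muscle, highest at CT20. Its peaks were at CT8.31 and CT16.6 with folds of 1.31 and 2.10, 8.31 h later in skeletal muscle (6.16 to 10.46 h, adjusted p 5.25e-08). Cpeb1, which binds the tails of messenger RNAs, peaked at CT10.4 in heart and CT23.9 in skeletal muscle with folds of 1.23 and 1.43 (adjusted p 1.05e-05), and on ranks or with a straight line added it was not called in heart. Tnik, a kinase of Wnt signalling, peaked at CT20.4 and CT6.01 with folds of 1.26 and 1.30. Ccrl2, Cdc14a and Slc16a10 were the other 3, with peaks at CT10.8 and CT1.73, CT7.14 and CT13.9, and CT17.9 and CT0.389. Arrdc3, Cdc14a and Slc16a10 were chosen after their values were seen.

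Among shifts under 6 h, 3 genes of insulin action, glycolysis and glucocorticoid response kept their class. Pik3r1, the regulatory subunit of PI3 kinase, went from 10.81 through 11.19 to 11.63 log2 intensity in heart and from 9.60 through 10.05 to 10.54 in skeletal muscle. The heart arrays were all above the skeletal muscle arrays. Its peak came 3.88 h later in skeletal muscle (2.85 to 4.92 h, adjusted p 1.05e-05) at folds of 1.56 and 1.68. Pfkfb3, an activator of glycolysis, went from 6.33 through 6.61 to 7.13 in heart and from 9.25 through 10.56 to 11.69 in skeletal muscle, and those ranges did not overlap. It had folds of 1.49 and 2.70 and peaked 4.89 h earlier in skeletal muscle (2.67 to 7.11 h, adjusted p 0.000123). Zbtb16, a glucocorticoid-induced repressor, had folds of 2.61 and 1.51 and peaked 4.07 h later in skeletal muscle (2.19 to 5.95 h, adjusted p 9.61e-05).

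**Figure D5:**
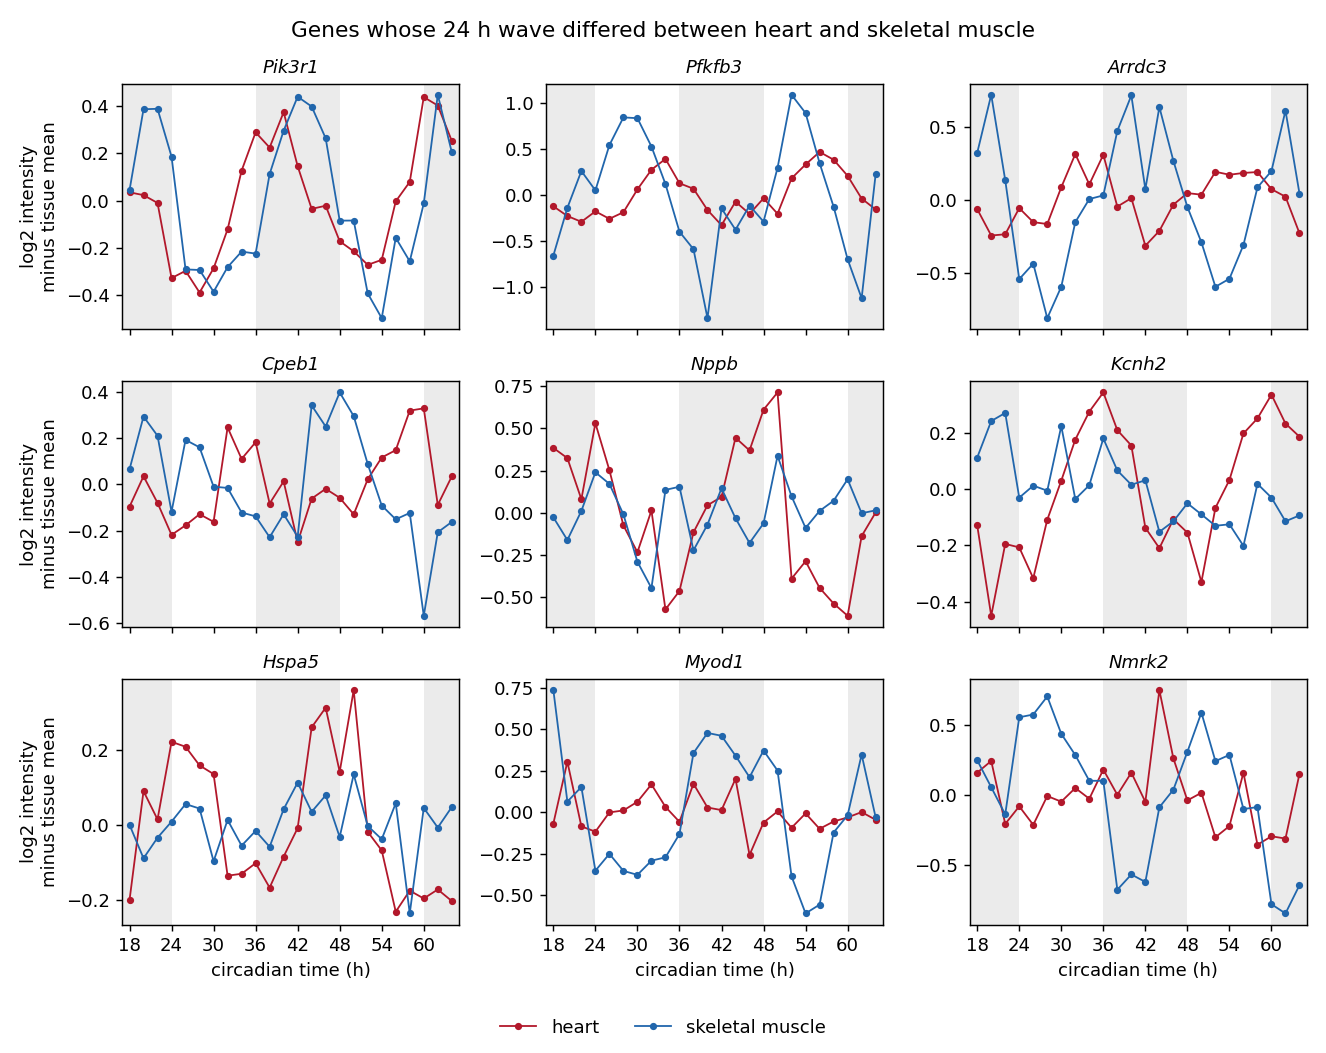
Log2 intensity minus the tissue mean for 9 genes past the test of difference, by circadian time, heart in red and skeletal muscle in blue, 1 array per point, subjective night shaded. Pik3r1, Pfkfb3, Arrdc3 and Cpeb1 swing in both tissues at different hours, Nppb, Kcnh2 and Hspa5 were called in heart alone, and Myod1 and Nmrk2 in skeletal muscle alone.

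Heart-specific waves included genes of cardiac excitation and load. Of 17 measured membrane excitation channels 4 were rhythmic in heart and 0 in skeletal muscle, against 8.65% and 5.16% of all genes, and 3 were heart-specific, against 1.77%. In skeletal muscle 2 passed at an unadjusted p under 0.05, against 3178 of all 19938 genes, and 0 by ranks. On ranks 0 of the 17 passed the test of difference, and with the lymphocyte covariate 1 did. Kcnh2, the channel of the rapid delayed rectifier current, went from 8.50 through 8.93 to 9.30 log2 intensity in heart, lowest at CT20 and highest at CT36, with a fold of 1.5 (1.39 to 1.62). In skeletal muscle it lay between 6.27 and 6.74, below every heart array, with a fold of 1.05 (adjusted p of the difference 8.11e-05). Gja1, the gap junction protein connexin 43, had folds of 1.41 and 1.22, and its difference no longer passed without the skeletal muscle array of CT48, without the arrays that stood apart or with the lymphocyte covariate. Nppb, the brain natriuretic peptide gene, went from 10.97 through 11.59 to 12.29 in heart, highest at CT50, with a fold of 1.92 and a peak at CT22.1. In skeletal muscle Nppb stayed between 5.94 and 6.73 with a fold of 1.04 (adjusted p 0.000484). At the low skeletal muscle levels of Kcnh2 and Nppb a wave could hardly show. Of the 12 genes of the natriuretic and stretch list, 6 were rhythmic in heart and 1 in skeletal muscle, against 8.65% and 5.16% of all genes. At an unadjusted p under 0.05, 6 passed in heart and 3 in skeletal muscle, against 4108 and 3178 of all 19938 genes. The difference passed for 3, against 5.0% of all genes, for 2 without the arrays that stood apart and for 0 on ranks. With the lymphocyte or the white adipocyte covariate 1 passed it, and with the slow fibre covariate 3. Kcnh2 and Nppb kept their class, with adjusted p of the difference of 0.0511 and 0.18 on ranks.

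Other heart-specific genes had sizeable levels in both tissues. Epha4, an ephrin receptor, had folds of 1.75 in heart and 1.07 in skeletal muscle (adjusted p 2.29e-08). Timp3, an inhibitor of matrix proteases, had folds of 1.74 and 1.15 (adjusted p 6.93e-05), and without the skeletal muscle array of CT26 it was rhythmic in skeletal muscle as well. Ppp1r3a, the glycogen-targeting subunit of striated muscle, had folds of 1.37 and 1.02 although its median was 11.44 in heart and 12.49 in skeletal muscle. Foxo3, a driver of atrophy genes, had folds of 1.35 and 1.08 (adjusted p 0.0206). All 4 kept their class, but the differences of Timp3, Ppp1r3a and Foxo3 were lost on ranks, that of Ppp1r3a also with all 288 arrays in the fit (adjusted p 0.791) and that of Foxo3 with quantile normalization of the 48 arrays. Rcan1, a calcineurin inhibitor with folds of 1.97 and 1.16, and Pfkfb2, the heart form of the glycolytic regulator, with 1.66 and 1.11, did not.

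The chaperones of the endoplasmic reticulum, which fold secreted and membrane proteins, had the most heart-specific members of the 27 function lists. Of 12 measured genes 9 were rhythmic in heart, against 8.65% of all genes, and 2 in skeletal muscle, against 5.16%. At an unadjusted p under 0.05, 10 passed in heart, 6 in skeletal muscle and 5 for the difference. Among all 19938 genes these counts were 4108, 3178 and 3516. The difference passed for 4, against 5.0% of all genes, and all 4 were heart-specific, against 1.77%. With the lymphocyte or the white adipocyte covariate 2 passed it, and on ranks 0. The median fold of the list was 1.34 in heart and 1.11 in skeletal muscle, beside 1.07 in both tissues for all genes. Hspa5, the master chaperone BiP, went from 11.84 through 12.02 to 12.43 log2 intensity in heart and from 10.38 through 10.62 to 10.75 in skeletal muscle, and was highest at CT50 in both. Its fold was 1.35 in heart and 1.05 in skeletal muscle (adjusted p of the difference 0.00272). Manf had folds of 1.52 and 1.02, Creld2 of 1.45 and 1.12, and Hyou1 of 1.41 and 1.08, with heart peaks from CT23.3 to CT23.5. Sdf2l1 had a fold of 1.51 in heart and 1.15 in skeletal muscle with no called difference. Pdia3 and Pdia6 too were called in heart alone with no called difference. Without the skeletal muscle array of CT56, Pdia3 was called in skeletal muscle as well. Pdia4 and Calr were shared, and Canx, Dnajb11 and Hsp90b1 were called in neither. Hspa5 and Manf kept their class, and Hyou1, Creld2, Pdia4 and Calr did not. On ranks the adjusted p of the difference was 0.477 for Hspa5 and 0.078 for Manf, and with all 288 arrays in the fit the difference of Hspa5 no longer passed. The difference of Sdf2l1 passed with circadian time as replicate block and without the heart array of CT22 or CT52, Hsp90b1 was called in heart without CT22 and in skeletal muscle without CT56, and Calr lost its skeletal muscle call without any 1 of CT22, CT34, CT36, CT38, CT46, CT58 or CT62.

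The promoters of Hspa5 and Creld2 are shown because they hold the endoplasmic reticulum stress element, which is CCAAT and CCACG parted by 9 bases of any kind, a motif searched for after the values were seen. They are RefSeq sequences of GRCm38.p6, 150 bases up to the base before the start, with the CCAAT and CCACG parts (or their reverse complements) in capitals. Hspa5 lies at chr2:34771940-34772089 on the plus strand, its element beginning 65 bases before the start, and Creld2 at chr15:88819496-88819645 on the plus strand, its element in reverse beginning 126 bases before.
Hspa5: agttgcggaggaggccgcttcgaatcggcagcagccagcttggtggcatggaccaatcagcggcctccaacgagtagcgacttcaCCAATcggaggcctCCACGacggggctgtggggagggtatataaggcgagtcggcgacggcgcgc
Creld2: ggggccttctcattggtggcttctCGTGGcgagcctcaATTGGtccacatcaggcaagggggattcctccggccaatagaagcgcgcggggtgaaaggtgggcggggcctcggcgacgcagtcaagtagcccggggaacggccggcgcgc
On either strand the element was in the 300-base windows of 6 of 10 chaperone genes that have one, against 20 of 15563 genes (0.129%). The 6 include Hsp90b1 and Canx, which were called in neither tissue.

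Large skeletal muscle-specific waves included genes of B cells, slow fibres and fat synthesis. Cxcl13, a chemokine that attracts B cells, went from 6.66 through 7.12 to 11.55 log2 intensity in skeletal muscle, highest at CT46, an array high in lymphocyte markers, and had a fitted fold of 12.3. Cd79b, of the B cell receptor, had a fold of 5.27 and was also highest at CT46. Myh7, the slow myosin heavy chain, went from 9.29 to 12.51 around a median of 11.50 in skeletal muscle with a fold of 4.06, and Tnnc1, the slow and cardiac troponin C, had 4.82. In heart their folds were 1.15 and 1.06. Atp2a2, the calcium pump of heart and slow fibres, had 2.78 in skeletal muscle and 1.02 in heart. Fasn, fatty acid synthase, had a fold of 3.78, highest at CT24, the array with the highest adipocyte mean. None of these 6 kept its class. Fasn lost it with the lymphocyte covariate alone (adjusted p of the difference 0.0814) and passed with the white adipocyte covariate. The other 5 were lost with the lymphocyte, the white adipocyte and the slow fibre covariate alike, and Myh7 and Cd79b are themselves markers of such a list. Of the marker lists, 5 of 6 slow fibre markers, 7 of 9 lymphocyte markers and 5 of 6 white adipocyte markers were rhythmic in skeletal muscle, against 5.16% of all genes. The part of cell and fibre make-up in these waves was not tested beyond the covariate fits.

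Apart from these, 36 skeletal muscle-specific genes kept their class. Myod1, the myogenic master factor, went from 8.06 through 8.65 to 9.41 log2 intensity in skeletal muscle, lowest at CT54 and highest at CT18, and from 5.92 to 6.49 in heart, below every skeletal muscle array. Its skeletal muscle fold was 1.79 (1.52 to 2.11) with a peak at CT18.2 (adjusted p of the difference 0.00046). At the low heart level of Myod1 a wave could hardly show. Nmrk2, the muscle kinase that makes NAD from nicotinamide riboside, had a fold of 2.14 and peaked at CT2.92 (adjusted p 6.42e-05). Slc8a1, the sodium-calcium exchanger, was not called in heart at a fold of 1.08 and had 1.49 in skeletal muscle, although its median was 10.75 in heart and 7.35 in skeletal muscle. Slc25a30, a mitochondrial carrier, and Cep85l, a centrosomal protein, were chosen after their values were seen. Slc25a30 had folds of 1.05 in heart and 2.75 in skeletal muscle at a peak of CT14.3, and Cep85l of 1.17 and 2.15 (adjusted p 2.53e-08). Of these 5 genes, Nmrk2 and Cep85l also passed the test of difference on ranks, and Myod1, Slc8a1 and Slc25a30 did not.

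Some lists had no called difference, beside 5.0% of all genes, a share that leaves 0 or 1 gene in lists this short. Of 14 measured respiratory chain genes and 9 cytosolic ribosome genes, 0 were rhythmic in heart, 0 in skeletal muscle and 0 differed by limma's test. At an unadjusted p under 0.05, 2 respiratory chain genes passed in heart, 2 in skeletal muscle and 3 for the difference. For the ribosome genes these counts were 1, 0 and 2, and among all 19938 genes 4108, 3178 and 3516. In a fit on ranks 0 of either list were called. The median folds were 1.04 in heart and 1.07 in skeletal muscle for the respiratory chain and 1.05 and 1.04 for the ribosome. Of 11 cholesterol synthesis and uptake genes and 12 collagen and matrix genes 0 passed the test of difference. At an unadjusted p under 0.05, 0 of the first and 2 of the second did, and 0 of either by ranks. The glucocorticoid response list had 9 of 11 rhythmic in heart and 7 in skeletal muscle, against 8.65% and 5.16% of all genes, with 2 differing, Zbtb16 and Glul. Of 18 fatty acid oxidation genes 4 were rhythmic in heart and 7 in skeletal muscle, and 3 differed. At an unadjusted p under 0.05, 7 of them passed in heart, 16 in skeletal muscle and 10 for the difference. With the slow fibre, the lymphocyte or the white adipocyte mean as covariate, or on ranks, 0 differed.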

How the data were processed

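Per the labels, heart and skeletal muscle RNA was hybridised to Affymetrix arrays, 1 pool of 3 mice per array. The authors deposited linear intensity for every probe set of each array, made with Affymetrix Expression Console and GCRMA per the submitters' processing notes. Versions are not given in the sources used here. The intensities were taken to log2 with no pseudocount. Of 35556 probe sets 21789 carried 1 gene symbol, and the probe set of highest mean stood for a gene with several, leaving 19938 genes. Array medians lay between 95.9 and 105.9. The number of arrays, 24 per tissue, limits the precision. Levels were not tested between tissues, since normalization can affect them.

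Waves of 24 h were fitted by tissue, and their cosine and sine coefficients compared in 1 fit, with limma 3.58.1 in R 4.3.3 (moderated F test, Benjamini-Hochberg adjustment). Intervals are 95%. The peak and fold intervals carry no adjustment for the number of genes. An array stood apart when a marker mean lay over 5 scaled deviations and 1 log2 unit from its tissue's median, or its correlation to the others was low. On simulated waves of this comparison (19938 genes), 100% of 40 genes shifted by 6 h and 70% of 40 genes with a 2-fold against a smaller wave were called different, and 0.0557% of unchanged genes. The simulated noise was normal and independent between genes and arrays. It held no shifts of marker means with circadian time and no arrays that stood apart. These rates therefore do not measure false calls in the real arrays.

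Named genes were the 2 clock lists, the 10 largest waves of each class (and 5 more above the median level in both tissues), the 12 largest peak differences and 8 largest fold ratios, and up to 4 of each function list, for class genes with peaks of the 2 days within 4 h. The endoplasmic reticulum list is given whole. Further genes were added after their values were seen, and they count among the named genes. Members and lists were chosen with earlier results of these data known. The covariate fits for adipocyte and slow fibre markers were chosen after seeing the data. Motifs were searched in RefSeq promoter windows.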

Additional observations from a re-analysis of the deposited data

Results flagged for a closer look

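The waves of 996 genes differed between the 2 tissues by limma's test, and the named genes among those rhythmic in both whose peaks lay over 6 h apart are set out here with the adjusted p of the difference. For 6 of them the class held in all 5 fits without the arrays that stood apart or with a marker covariate. These were Arrdc3 (5.25e-08), Tnik (4.66e-06), Cpeb1 (1.05e-05), Ccrl2 (1.19e-05), Cdc14a (1.19e-05) and Slc16a10 (3.25e-05).

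The others did not keep their class in all 5. Among genes of signalling, transport and transcription, the adjusted p was 3.6e-07 for Bace1, 1.05e-05 for Mlxip, 1.82e-05 for Akap1, 3.59e-05 for Hdac4, 9.3e-05 for Mn1, 0.000192 for Gadd45g, 0.000208 for Slc1a5, 0.000323 for Nudt4, 0.000484 for Aqp4, 0.0131 for Ddit4 and 0.0131 for Pdlim3. Among genes of lipid handling and of fat or immune cells, it was 2.73e-05 for Thrsp, 9.6e-05 for Slc25a1, 0.000254 for Sncg, 0.000359 for Gm2a, 0.00343 for H2-Ab1, 0.00523 for Aldh1a1 and 0.00673 for Ly86. The part of the marker waves in these differences was not tested beyond the covariate fits. Akap1, Hdac4, Mn1, Gadd45g, Thrsp and Slc25a1 were chosen after their values were seen, as were Arrdc3, Cdc14a and Slc16a10 above.

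Outside the named genes, 61 of 13767 probe sets without a single gene symbol also passed the test of difference. They were not analysed further.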

How the results depend on the processing

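Skeletal muscle counts fell in the fits with a marker covariate, without the arrays that stood apart and on ranks. Fitted with the lymphocyte mean, 395 genes were rhythmic in skeletal muscle and 277 differed, with 149 shared, 45 both and different, 126 heart-specific and 78 skeletal muscle-specific. With the white adipocyte mean these 6 counts were 354, 404, 138, 61, 209 and 71. With the slow fibre mean 426 were rhythmic in skeletal muscle, 434 differed, 66 were both and different, 217 heart-specific and 80 skeletal muscle-specific. Skeletal muscle-specific genes numbered 222 with the hepatocyte mean, 152 without the arrays that stood apart and 166 without the skeletal muscle ones of these. Ranks put both tissues on 1 scale, so that a fold difference alone may not show. On ranks 680 were rhythmic in skeletal muscle, 386 differed, 31 were both and different, 212 heart-specific and 61 skeletal muscle-specific. Causes were otherwise not tested.

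Leaving out each array in turn gave 1519 to 1866 rhythmic genes in heart, 787 (without CT22) to 1492 (without CT24) in skeletal muscle, 823 to 1341 differing, 205 to 274 shared, 102 to 172 both and different, 290 to 434 heart-specific, 242 to 452 skeletal muscle-specific, and a core clock lead of skeletal muscle with a mean shift of -1.24 to -0.98 h. Differences turned in the slow fibre fit for Tnni1 (adjusted p 0.956) and in the lymphocyte fit for Ptprc (0.983), Cd53 (0.933) and Ly86 (0.986).

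Arrays of the 2 tissues were matched by circadian time, and no label used here says whether their pools came from the same mice. Same-time residuals correlated between -0.132 and 0.393 (median 0.072, against -0.009 at different times). In 7 of 24 pairs the correlation was above 0.1, and no heart array matched its own time best. Whether mice were shared was not tested. With circadian time as a replicate block 1051 genes differed. Of the named genes, 83 no longer passed the test of difference on ranks and 15 with all 288 arrays in the fit. With 1 array per time, the depth of these data is set by the 24 arrays of a tissue.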

Other observations

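Among the genes that kept their class, 5 with a known part in amino acid transport or nutrient sensing are given here, picked after their values were seen and not tested as a group. Slc7a8, a carrier of neutral amino acids, was skeletal muscle-specific with a fold of 1.70 and a peak at CT13, against a fold of 1.08 in heart (adjusted p of the difference 2.49e-05 by limma). Slc43a1, another such carrier, had 1.70 at CT5.37 in skeletal muscle and 1.13 in heart, and without the heart array of CT34 it was called in heart as well. Slc38a2, which takes up glutamine and alanine, was rhythmic in both tissues with folds of 1.18 in heart and 1.60 in skeletal muscle (adjusted p 0.000733). Ddit4l, an inhibitor of mTOR signalling, had 1.47 in skeletal muscle and 1.13 in heart, and its difference no longer passed with all 288 arrays in the fit (adjusted p 0.608). Fnip1, a partner of folliculin and AMPK, had 1.45 and 1.06. On ranks the differences of Slc43a1 and Slc38a2 were lost. The peaks of the 5 in skeletal muscle were spread from CT5.37 to CT20.6.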
